A study of Mus musculus with 32 samples.

Results

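The comparison described here set tibialis anterior muscle of Gaa-/- mice against that of wild-type (WT) mice at 4 months of age. It rested on 8 of the 32 arrays of the series, 4 per genotype, each labelled as a biological replicate, and took in every probe set with a gene symbol, 19291 of 20079. The series holds the same 2 genotypes at 1.5, 4, 6 and 9 months with 4 arrays in each of 8 groups, so the other 24 arrays served to estimate the spread. The Gaa-/- mice carried the genotype label GAA-KO 6neo/6neo, a disruption of Gaa by a neomycin cassette present in every cell, and the WT mice the label Wild type. Both groups were labelled with the strain B6/129, and the labels name no treatment and do not state sex or whether the groups were littermates.

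Gaa encodes acid alpha-glucosidase, the enzyme that breaks down glycogen inside lysosomes. Without it glycogen builds up in lysosomes, most visibly in skeletal and heart muscle, and the human disease is Pompe disease. In muscle fibres the swollen lysosomes come with stalled autophagy, and the tibialis anterior is a limb muscle made mostly of fast glycolytic fibres. The question put to the 4-month arrays was which transcripts stood apart in such muscle, by how much, and in which direction.

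Levels are log2 intensities, so a difference of 1 is 2-fold. Array medians lay between 5.66 and 5.82, and a gene whose lower group mean falls under 5.66 is called dim here, because the lower level then sits close to the array's floor and its fold change is best read as a lower bound. Arrays correlated at r = 0.980 to 0.990 across genes within WT, 0.982 to 0.991 within Gaa-/- and 0.970 to 0.983 between the genotypes. The lowest mean correlations with their own group belonged to WT replicate 3 (0.981) and Gaa-/- replicate 1 (0.984). The Y-linked gene Eif2s3y lay at 7.85 to 8.20 in WT and 7.53 to 8.15 in Gaa-/-, and Uty at 6.84 to 7.56 and 7.03 to 7.62. Kdm5d, also Y-linked, lay lower, at 5.25 to 6.44 and 5.86 to 6.29. The sex of the mice was not tested further. Tissue identity fitted the label: the mean level of 12 skeletal muscle markers was 12.77 to 12.80 in WT and 12.70 to 12.80 in Gaa-/-, whereas 5 slow-fibre markers lay near the array median, at 5.39 to 5.64 and 5.70 to 6.11. These are whole-muscle samples, in which fewer cells of a type and less RNA per cell cannot be told apart.

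Gaa itself separated the genotypes on every array. It lay at 10.61, 10.63, 10.36 and 10.53 in the 4 WT muscles and at 6.70, 6.87, 7.11 and 7.25 in the 4 Gaa-/- muscles, a fall of 3.55 ± 0.13 (standard error) on the log2 scale, or 11.7-fold (limma, adjusted p = 4.52e-19). The exact two-sided permutation test of the 8 arrays gave p = 0.0286, the smallest that 4 against 4 allows. The signal left in Gaa-/- muscle was above the dim range, and the sources used here do not say where on the transcript its probes lie. Of the 100 tested genes nearest to Gaa on chromosome 11, 8 passed the threshold, 4 higher and 4 lower. That is 8%, against 5.70% of all genes tested.

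Across all genes, 1099 of 19291 differed between the genotypes at 4 months at an adjusted p of 0.05 (limma, Benjamini-Hochberg), which is 5.70% of those tested. Of these, 656 were higher in Gaa-/- (3.40%) and 443 were lower (2.30%). The 4 Gaa-/- values and the 4 WT values did not overlap for 997 of the 1099, against 11.2% of all genes tested. Because the 1099 were chosen on the same arrays, that number is largely set by the choice. Changes of at least 2-fold numbered 146 upward and 59 downward, and the median size among the 1099 was 0.64. The median difference over all genes was -0.04, the value against which list medians are read. With the spread of each array's values as a covariate, the split was 666 higher and 658 lower. In 16 further fits, 8 with another setting and 8 leaving out 1 array each, 576 of the 1099 genes (374 higher, 202 lower) passed wherever they were tested; these are called stable below, and the genes described individually are stable unless stated otherwise. Gaa-/- replicate 1 had the lowest of the 4 Gaa-/- values for 288 of the 656 higher genes, and WT replicate 3 had the lowest of the 4 WT values for 304.

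**Figure D1:**
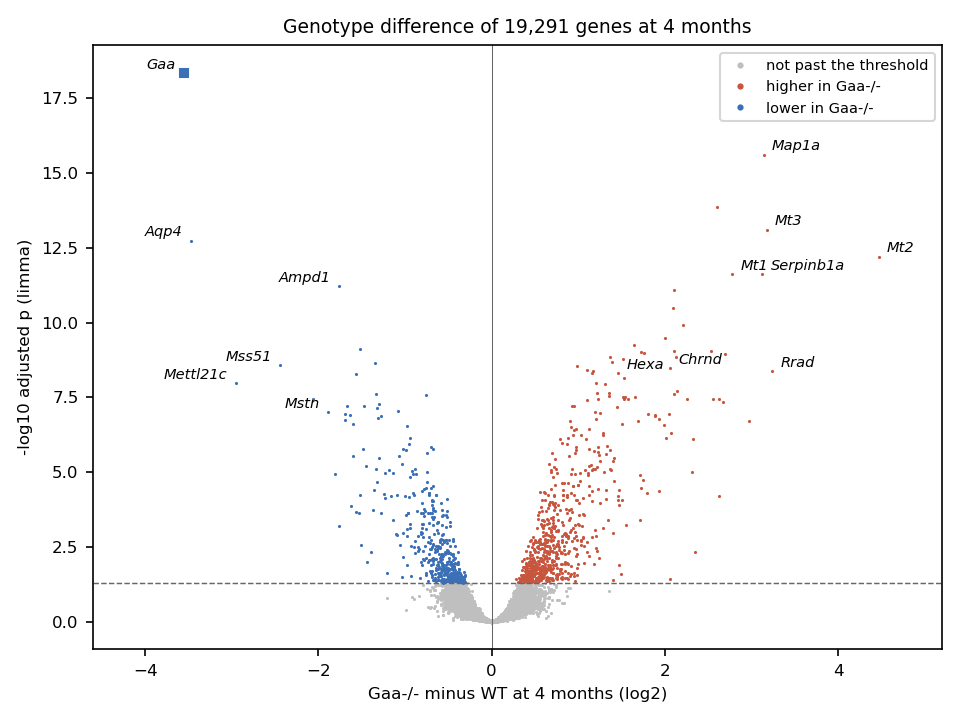
Difference between Gaa-/- and WT muscle at 4 months (x axis, log2) against the -log10 of the adjusted p from limma (y axis) for 19291 genes, with the dashed line at 0.05 and Gaa as a square. Red points are the 656 higher genes and blue points the 443 lower genes; Gaa is lowest at -3.55 and Mt2 highest at 4.47.

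Mt2 had the largest rise of any gene past the threshold, and Mt3 and Mt1 were among the 15 largest. Metallothioneins are small cysteine-rich proteins that bind zinc and copper, induced by metals, glucocorticoids and oxidants. Mt2 lay at 7.63, 8.34, 7.59 and 7.83 in WT and at 11.94, 12.05, 12.81 and 12.45 in Gaa-/- muscle, a rise of 4.47 ± 0.28 or 22.1-fold (adjusted p = 6.26e-13). Mt1 lay at 9.12, 9.05, 9.0 and 8.98 in WT and at 11.88, 11.48, 12.03 and 11.87 in Gaa-/-, a rise of 2.78 ± 0.19 or 6.87-fold. The ranges were more than 2 log2 units apart for both genes, and the 4 WT values of Mt1 were close together. Mt3, known mainly from the brain, was dim in WT at 4.97, 4.65, 5.40 and 5.02 and lay at 8.17, 8.27, 7.97 and 8.33 in Gaa-/-, at least 9.03-fold higher. Mt4, known from stratified epithelia, did not pass the test: its mean was 5.73 in WT and 5.81 in Gaa-/- (adjusted p = 0.888). Mt1 and Mt2 are close in sequence, and cross-hybridisation between their probe sets was not tested.

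Mt1 to Mt4 lie in a row on chromosome 8, and the 250 bases before the RefSeq start of each gene are printed here. These sequences come from RefSeq (build GRCm38.p6, plus strand), 5′ to 3′, and end at the base before the gene start in the RefSeq table, which need not be the start used in muscle. Capitals mark matches to the core of the metal response element, TGCACNC or TGCGCNC on either strand, where N is any base.
Mt1: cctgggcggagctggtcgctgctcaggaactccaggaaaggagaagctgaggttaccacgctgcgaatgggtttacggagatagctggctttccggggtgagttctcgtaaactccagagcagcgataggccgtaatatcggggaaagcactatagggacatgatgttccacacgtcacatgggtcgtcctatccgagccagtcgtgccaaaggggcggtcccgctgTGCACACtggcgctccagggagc
Mt2: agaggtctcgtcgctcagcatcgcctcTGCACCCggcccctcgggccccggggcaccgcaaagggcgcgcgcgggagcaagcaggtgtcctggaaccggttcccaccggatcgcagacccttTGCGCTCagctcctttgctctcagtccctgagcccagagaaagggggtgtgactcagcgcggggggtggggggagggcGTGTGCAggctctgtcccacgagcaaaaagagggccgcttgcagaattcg
Mt3: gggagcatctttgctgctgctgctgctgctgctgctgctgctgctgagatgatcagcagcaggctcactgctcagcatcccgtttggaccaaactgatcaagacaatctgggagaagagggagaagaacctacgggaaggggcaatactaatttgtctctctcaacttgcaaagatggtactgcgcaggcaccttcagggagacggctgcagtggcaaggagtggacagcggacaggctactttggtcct
Mt4: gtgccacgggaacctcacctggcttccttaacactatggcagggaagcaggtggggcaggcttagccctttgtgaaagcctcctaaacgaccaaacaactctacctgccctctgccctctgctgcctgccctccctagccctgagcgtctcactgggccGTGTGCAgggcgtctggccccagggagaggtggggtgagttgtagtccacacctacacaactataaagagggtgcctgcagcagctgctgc
The windows are chr8:94178839-94179088 for Mt1, chr8:94172368-94172617 for Mt2, chr8:94152357-94152606 for Mt3 and chr8:94136954-94137203 for Mt4. Mt2 held 3 matches, Mt1 and Mt4 held 1 each and Mt3 held 0. A match was present in 28.0% of the 15519 tested genes with such a window, in 30.2% of those that rose and in 33.0% of those that fell, and a match describes letters only. The order of the matches did not follow the order of the rises, since Mt3 rose with 0 and Mt4 did not pass with 1. Elements outside these windows were not searched, so the counts do not describe all that lies upstream of these genes.

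Other genes of zinc and copper handling moved little. Of 20 measured, including the metallothioneins, 5 rose, 0 fell and 4 of the rises were stable, with a list median of 0.14. Slc39a10, a zinc importer of the plasma membrane, lay at 7.07, 7.03, 6.84 and 7.18 in WT and 7.68, 7.84, 7.98 and 8.08 in Gaa-/-, a rise of 0.86 ± 0.15. Named after its values were seen, the zinc exporter Slc30a1 did not pass, with a difference of -0.13 (adjusted p = 0.704). Of 14 iron genes 2 rose and 1 fell, none of these calls was stable, and the count was 1 without WT replicate 1.

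The other large rises came from genes of unlike function. Rrad, a small GTPase that restrains voltage-gated calcium channels, was dim in WT at 4.61, 4.73, 5.14 and 4.87 and lay at 8.08, 8.38, 8.25 and 7.61 in Gaa-/-, at least 9.45-fold higher (adjusted p = 4.14e-09). Map1a, a microtubule-associated protein best known from neurons, was dim at 5.76, 5.12, 5.45 and 5.46 and lay at 8.80, 8.62, 8.38 and 8.55, at least 8.81-fold higher with the smallest adjusted p of any rise, 2.42e-16. Klf5, a zinc finger transcription factor, was dim at 5.87, 4.53, 4.88 and 4.55 and lay at 7.88, 7.92, 8.05 and 7.87. The Gaa-/- values of Klf5 were close together while 1 WT muscle lay about 1 log2 unit above the rest. Ttc9, which carries tetratricopeptide repeats, rose by 2.53 ± 0.22 from a dim WT mean of 5.40. Eda2r, a death-receptor-like member of the TNF receptor family, lay at 6.90, 7.27, 6.23 and 7.19 in WT and at 9.17, 9.48, 9.42 and 9.73 in Gaa-/-, a 5.86-fold rise. Nr4a3, an orphan nuclear receptor, spread widely in both genotypes, at 6.89, 8.41, 7.47 and 8.84 in WT and 10.79, 9.98, 10.81 and 9.42 in Gaa-/-, and rose by 2.35 ± 0.54 (adjusted p = 0.00481).

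The largest falls after Gaa included proteins of the fibre membrane and of its metabolism. Aqp4, the water channel anchored to the dystrophin complex of fast fibres, lay at 8.37, 8.63, 8.10 and 8.69 in WT and was dim at 5.02, 4.85, 4.91 and 5.12 in Gaa-/-, at least 11.1-fold lower (adjusted p = 1.81e-13). Cyp4f39, a cytochrome P450 of fatty acid hydroxylation, lay at 7.02, 6.41, 6.74 and 7.06 and at 4.87, 4.73, 4.49 and 4.89, at least 4.17-fold lower. Gdap1, a protein of the outer mitochondrial membrane involved in fission, lay at 6.14, 5.89, 5.48 and 5.99 and was dim in Gaa-/- at 4.30, 3.86, 3.90 and 4.20. In all 3 genes the highest Gaa-/- muscle lay more than 1 log2 unit below the lowest WT muscle. Slc15a5, a member of the oligopeptide transporter family, fell by 1.70 ± 0.19, Trp53i11 by 1.63 ± 0.28 and Ybx2, an RNA-binding Y-box protein, by 1.61 ± 0.21.

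**Figure D2:**
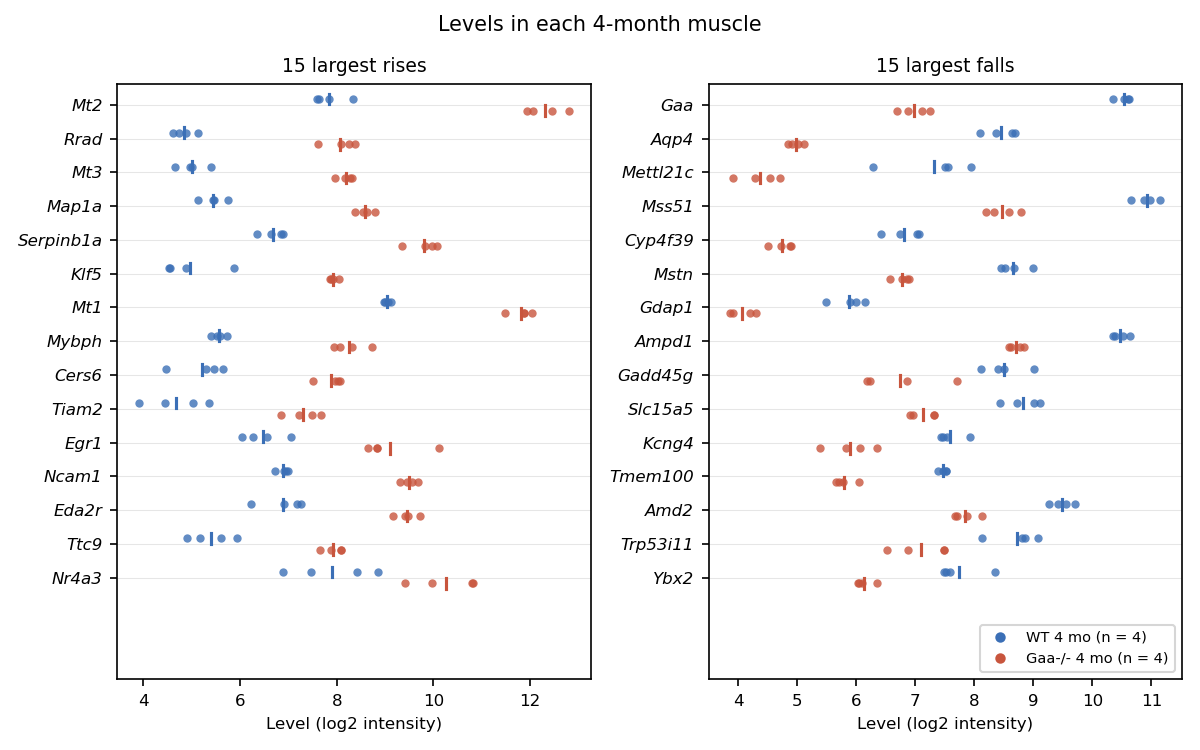
Level of the 15 genes with the largest rises and the 15 with the largest falls among genes past the threshold without overlap (x axis, log2 intensity; each dot 1 muscle, n = 4 per genotype; bars, group means). No gene's blue WT dots reach its red Gaa-/- dots, which is how they were chosen; Nr4a3 and Gadd45g have the widest spread.

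The lysosome, the organelle in which Gaa acts, showed rises in some parts and not in others. Of 18 measured hydrolases of sugars, 1 passed: Hexa, the alpha subunit of beta-hexosaminidase, lay at 7.58, 7.63, 7.41 and 7.67 in WT and 9.07, 9.06, 8.98 and 9.02 in Gaa-/-, a 2.75-fold rise (adjusted p = 4.80e-09). The list's median was 0.11, and the other 17 did not pass. Of 23 lysosomal proteases and lipases 6 rose and 0 fell, with a median of 0.30. The stable ones were Ctss, cathepsin S of antigen-presenting cells, at 5.51, 5.57, 5.84 and 5.80 in WT and at 6.38, 7.40, 7.27 and 6.94 in Gaa-/-, Lgmn, the asparagine endopeptidase, with a rise of 0.96 ± 0.13, and Ctsa, the protective protein, with 0.60 ± 0.12. The count of 6 fell to 3 without WT replicate 1, WT replicate 2 or Gaa-/- replicate 2 and was 10 with array weights. Of 19 lysosomal membrane proteins 5 rose and 0 fell, 4 of them stable, with a median of 0.25. Cd63, a tetraspanin of late endosomes, rose by 1.03 ± 0.13. Lamp1, the most abundant coat glycoprotein of the lysosome, lay at 10.28, 10.27, 10.15 and 10.23 in WT and at 10.73, 10.85, 10.90 and 10.75 in Gaa-/-, a rise of 0.58 ± 0.10, and the amino acid exporter Slc36a1 rose by 0.65 ± 0.11 and Tmem192 by 0.49 ± 0.11. The mean level of 13 macrophage markers was also higher, at 5.34 to 5.44 in WT and 5.69 to 6.19 in Gaa-/-, and its part in the lysosomal rises was not tested; Ctss is itself 1 of these markers.

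The proton pump that acidifies lysosomes, the V-ATPase, was measured in 8 genes of its V1 sector, which hydrolyses ATP, and 9 of its V0 sector and accessory proteins, which hold the proton path. In each set 2 genes rose and 0 fell. Atp6v1a, the catalytic A subunit, lay at 6.93, 6.78, 6.53 and 6.85 in WT and 7.43, 7.15, 7.54 and 7.48 in Gaa-/-, a rise of 0.62 ± 0.13, and Atp6ap2, the accessory prorenin receptor, rose by 0.76 ± 0.16, although its lowest Gaa-/- value overlapped WT. The other 2 calls were not stable: Atp6v1h passed in every fit that left out 1 array but had an adjusted p above 0.05 with the 8 arrays alone, and Atp6v0a1 lost its call without WT replicate 2, WT replicate 3 or Gaa-/- replicate 3, which left 1 call of 9. The 250 bases before the RefSeq start of Atp6v1a (GRCm38.p6, chr16:44139260-44139509, minus strand, printed 5′ to 3′ on that strand) hold the palindrome TCACGTGA, the core that the lysosomal regulator TFEB is known to bind, here in capitals.
Atp6v1a: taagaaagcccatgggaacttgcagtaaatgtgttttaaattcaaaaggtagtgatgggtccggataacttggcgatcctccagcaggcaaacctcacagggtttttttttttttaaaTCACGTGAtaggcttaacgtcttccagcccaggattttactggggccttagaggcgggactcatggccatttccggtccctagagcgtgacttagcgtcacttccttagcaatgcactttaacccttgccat
This core was present in 1.21% of the 15519 promoter windows of tested genes, in 1.92% of those of genes that rose and in 0.295% of those that fell. It was found in 1 of 15 windows of sugar hydrolases, 2 of 20 of proteases and lipases, 2 of 18 of membrane proteins, 1 of 4 of the V1 sector and 0 of 7 of the V0 sector and accessory proteins. Ctsa, which also rose, has 2 windows, and 1 of them held a match, beginning 13 bases before its start. The windows of Atp6ap2, Hexa, Lamp1, Cd63, Sqstm1, Lgmn and Ctss, which also rose, held 0 matches. Only the full palindrome was searched for, so partial forms were not counted.

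Autophagy genes differed little. Of 34 genes of the autophagy machinery 2 rose and 1 fell, near the background, with a median of 0.06 and 7 calls when dim genes were left out or 6 with array weights. Map1lc3a, the LC3A protein of the autophagosome membrane, lay at 8.65, 8.65, 8.33 and 8.74 in WT and at 9.30, 9.12, 9.17 and 9.01 in Gaa-/-, a rise of 0.56 ± 0.13, and its relative Gabarapl1 rose by 0.69 ± 0.14. Of 11 autophagy receptors 1 rose and 1 fell: Sqstm1, the p62 protein that accumulates when autophagic clearance slows, lay at 10.06, 10.17, 9.97 and 10.03 in WT and 11.04, 11.08, 11.07 and 10.98 in Gaa-/-, a 1.98-fold rise. The fall in that list, Bnip3, lost its call without WT replicate 3, Gaa-/- replicate 1 or Gaa-/- replicate 2. Of 24 genes of mTORC1, the Rag GTPases and the TFEB family, 1 passed, Rragc (0.67 ± 0.17), and it lost its call without WT replicate 3, Gaa-/- replicate 2 or Gaa-/- replicate 3.

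Genes of proteins that bind damaged membranes came next. Of 16 galectins, annexins and membrane repair proteins 7 rose and 1 fell, 6 of them stable, with a median of 0.43. Anxa2, a calcium-dependent membrane-binding annexin, lay at 6.53, 6.89, 6.71 and 7.02 in WT and 8.09, 8.46, 8.71 and 8.52 in Gaa-/-, a 3.16-fold rise (adjusted p = 2.98e-08). Dysf, dysferlin, the patch protein of the muscle plasma membrane, lay at 8.22, 8.02, 8.01 and 8.37 in WT and at 9.31, 9.41, 9.30 and 9.30 in Gaa-/-, a rise of 1.18 ± 0.11. Lgals1 and Lgals3, galectins that bind exposed glycans, rose by 1.10 ± 0.12 and 0.80 ± 0.18. Trim72, the muscle repair protein MG53, rose by 0.69 ± 0.13 and Anxa6 by 0.46 ± 0.10. The Gaa-/- values of Anxa2 and Dysf lay above all WT values.

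Cytosolic glycogen and glucose genes moved in both directions. Of 15 genes of glycogen synthesis Gbe1, the branching enzyme, rose by 0.94 ± 0.11, from 7.56, 7.86, 7.92 and 7.68 in WT to 8.65, 8.63, 8.66 and 8.82 in Gaa-/-, and Pgm1, phosphoglucomutase, fell by 0.48 ± 0.09. Of 9 genes of glycogen breakdown 0 rose and 3 fell, Gaa included: Phkg1, the catalytic subunit of muscle phosphorylase kinase, lay at 11.21, 11.06, 11.08 and 11.18 in WT and at 10.49, 10.44, 10.33 and 10.46 in Gaa-/-, a fall of 0.70 ± 0.09. Of 29 genes of glucose uptake and glycolysis 2 rose and 3 fell, with 8 calls under array weights and a median of -0.09. Among the glucose transporters Slc2a1 (GLUT1), the carrier of low basal uptake, lay at 7.54, 6.84, 7.21 and 6.89 in WT and at 9.54, 8.96, 9.44 and 9.07 in Gaa-/-, a 4.38-fold rise (adjusted p = 1.38e-09). Slc2a3 (GLUT3) was already near the dim range in WT at 5.70, 5.87, 5.71 and 5.57 and fell to 4.29, 4.64, 4.45 and 4.34, at least 2.43-fold lower. Slc2a4 (GLUT4), the insulin-regulated carrier of muscle, was named after its values were seen and did not pass, at a mean of 9.61 in WT and 9.44 in Gaa-/-. Gpd1, cytosolic glycerol-3-phosphate dehydrogenase, fell by 0.67 ± 0.16.

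In the purine nucleotide cycle the 2 AMP deaminases that passed moved in opposite directions. Ampd1, the muscle isoform that turns AMP into IMP during hard contraction, lay at 10.65, 10.38, 10.35 and 10.51 in WT and 8.58, 8.78, 8.63 and 8.84 in Gaa-/-, a fall of 1.77 ± 0.12 or 3.40-fold (adjusted p = 6.19e-12). Ampd3, the isoform first described in red blood cells, lay at 7.24, 7.20, 7.34 and 7.55 in WT and at 8.35, 8.42, 8.96 and 8.76 in Gaa-/-, a rise of 1.29 ± 0.18. Of the 19 genes of purine and creatine metabolism 3 rose and 2 fell. Adk, adenosine kinase, fell by 0.62 ± 0.12, and Gamt, which makes creatine from guanidinoacetate, lay at 7.51, 6.81, 6.92 and 7.37 in WT and at 8.43, 8.63, 8.10 and 8.14 in Gaa-/-, a rise of 1.17 ± 0.17.

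Polyamine genes and lysine methyltransferases of muscle gave some of the largest falls. Of 9 polyamine genes 2 rose and 2 fell. Amd2, an intronless copy of the S-adenosylmethionine decarboxylase gene Amd1, lay at 9.41, 9.55, 9.26 and 9.71 in WT and at 7.67, 8.12, 7.70 and 7.88 in Gaa-/-, a fall of 1.64 ± 0.18, and transcripts of the near-identical Amd1 may contribute to its signal. Smox, spermine oxidase, fell by 1.0 ± 0.16, and Azin1, which frees ornithine decarboxylase from its antizyme, rose by 1.19 ± 0.17. Of 11 muscle methyltransferases and MYND-domain genes 1 rose and 4 fell, with a median of -0.25. Mettl21c, a lysine methyltransferase of muscle, lay at 7.55, 7.50, 6.27 and 7.94 in WT and was dim at 4.70, 4.54, 3.90 and 4.29 in Gaa-/-, at least 7.77-fold lower. Mss51, a MYND-finger protein of fast fibres, lay at 10.98, 10.65, 10.88 and 11.15 in WT and at 8.58, 8.79, 8.20 and 8.33 in Gaa-/-, a 5.44-fold fall, and Smyd2 fell by 0.94 ± 0.12. The highest Gaa-/- value of Mettl21c and of Mss51 lay more than 1 log2 unit below the lowest WT value.

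At the neuromuscular junction, where motor axons release acetylcholine onto clustered receptors, 4 of 15 measured genes rose and 0 fell, and all 4 were stable. Chrnd, the receptor's delta subunit, was dim in WT at 4.82, 4.65, 4.92 and 4.61 and lay at 6.52, 6.78, 7.07 and 6.88 in Gaa-/-, at least 4.17-fold higher (adjusted p = 3.41e-09). Chrna1, the ligand-binding alpha subunit, lay at 5.82, 5.30, 5.94 and 5.66 in WT and 6.77, 7.04, 6.79 and 7.06 in Gaa-/-, a rise of 1.24 ± 0.16. Musk, the kinase through which agrin clusters receptors, lay at 7.07, 6.50, 6.71 and 6.64 in WT and at 8.08, 7.78, 8.17 and 8.02 in Gaa-/-, a rise of 1.28 ± 0.16, and Ache, which ends the signal by cleaving acetylcholine, rose by 0.79 ± 0.14. The remaining subunits did not pass and were named after their values were seen. The beta subunit Chrnb1 differed by 0.45 (adjusted p = 0.22, and 0.027 with array weights), the fetal gamma subunit Chrng by 0.34 (0.298) and the adult epsilon subunit Chrne by -0.24 (0.532).

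**Figure D3:**
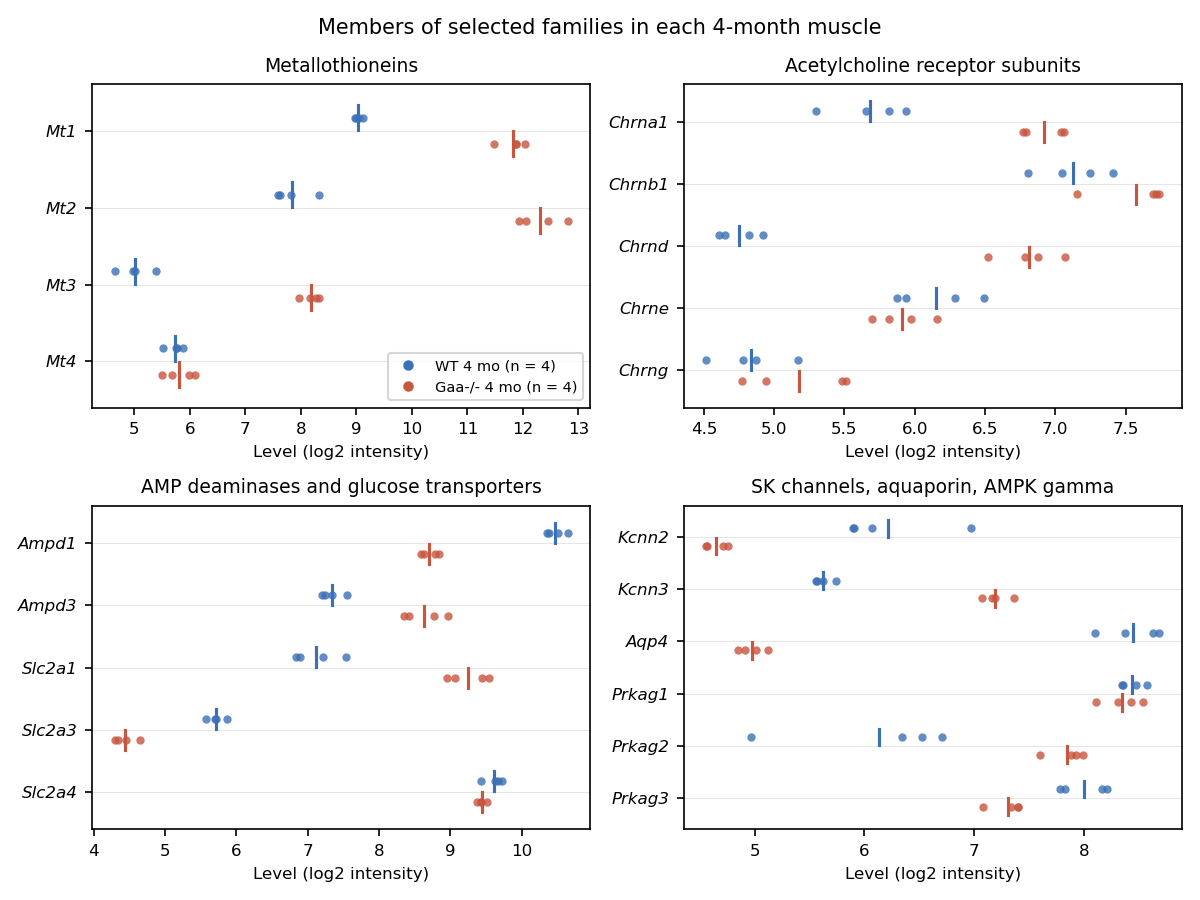
Level of members of selected families in each muscle at 4 months (x axis, log2 intensity, each panel with its own scale; each dot 1 muscle, n = 4 per genotype; bars, group means). Mt1, Mt2 and Mt3 separate while Mt4 does not; Chrna1 and Chrnd separate while Chrnb1, Chrne and Chrng overlap; Ampd1 against Ampd3, Slc2a3 against Slc2a1, Kcnn2 against Kcnn3 and Prkag3 against Prkag2 lie in opposite directions.

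Myogenic factors of the MyoD family are known to drive receptor genes through E-boxes, and the windows before the RefSeq starts of 3 genes that rose at 4 months and hold such an E-box are shown for that reason. Capitals mark the E-box CAGCTG, which reads the same on both strands. Each sequence is the 250 bases before the start on the gene's own strand, 5′ to 3′ (RefSeq, GRCm38.p6).
Chrna1: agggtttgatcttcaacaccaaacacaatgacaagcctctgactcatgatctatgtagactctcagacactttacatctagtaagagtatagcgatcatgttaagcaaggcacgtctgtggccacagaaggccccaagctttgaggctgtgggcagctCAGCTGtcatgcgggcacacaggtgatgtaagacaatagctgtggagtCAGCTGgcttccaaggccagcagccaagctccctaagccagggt
Musk: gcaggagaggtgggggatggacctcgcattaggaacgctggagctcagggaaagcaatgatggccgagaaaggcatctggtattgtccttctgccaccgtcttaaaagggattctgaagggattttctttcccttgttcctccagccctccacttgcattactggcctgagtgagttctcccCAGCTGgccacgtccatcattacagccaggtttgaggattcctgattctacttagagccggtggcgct
Mybph: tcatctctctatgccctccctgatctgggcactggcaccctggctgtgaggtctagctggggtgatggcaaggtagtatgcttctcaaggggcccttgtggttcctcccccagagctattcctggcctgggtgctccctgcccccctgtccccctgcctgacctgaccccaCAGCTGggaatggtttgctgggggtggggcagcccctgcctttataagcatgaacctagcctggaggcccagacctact
The windows are chr2:73580339-73580588 on the minus strand for Chrna1, chr4:58285712-58285961 on the plus strand for Musk and chr1:134193198-134193447 on the plus strand for Mybph. Chrna1 held 2 matches, beginning 92 and 44 bases before the start, Musk 1 at 68 and Mybph 1 at 79, whereas the windows of Ache, which also rose, and Myog held 0. An E-box of this form was present in 5 of the 9 junction genes with a window (55.6%), 14.2% of all tested genes with one, 19% of those that rose and 15.9% of those that fell. Of the MyoD family itself, named after its values were seen, Myod1 differed by -0.20 (adjusted p = 0.655), Myog by 0.50 (0.0511) and Myf5 by 0.29 (0.464), none of them past the threshold, and Myf6 by 0.59 (0.0161), with overlapping values; Myf6 lost its call without WT replicate 3, WT replicate 4, Gaa-/- replicate 3 or Gaa-/- replicate 4, and Myog gained one without WT replicate 3 or Gaa-/- replicate 3.

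Of 15 genes known to respond to denervation 5 rose and 3 fell, 4 of them stable, with a median of 0.10. The list does not separate genes that denervation raises from genes that it lowers, so these directions do not show whether the response moved together. Ncam1, the adhesion molecule that spreads over denervated fibres, lay at 6.95, 6.72, 6.91 and 7.0 in WT and 9.55, 9.45, 9.31 and 9.67 in Gaa-/-, a 6.08-fold rise (adjusted p = 1.32e-14). Runx1, a transcription factor induced by denervation, lay at 5.37, 5.95, 5.87 and 5.50 in WT and at 7.52, 6.99, 7.13 and 7.06 in Gaa-/-, a rise of 1.50 ± 0.17. Dach2, a repressor of the denervation response, lay at 6.53, 6.19, 5.60 and 5.93 in WT and at 4.61, 4.83, 4.54 and 5.16 in Gaa-/-, a fall of 1.28 ± 0.23, and Ank1 fell by 0.50 ± 0.12. The count of 8 dropped to 5 without Gaa-/- replicate 2 and with the 8 arrays alone. Of 14 developmental and cytoskeletal muscle isoforms 4 rose, 3 of them stable. Mybph, a myosin-binding protein of the thick filament, was dim in WT at 5.59, 5.72, 5.53 and 5.41 and lay at 7.94, 8.32, 8.07 and 8.72 in Gaa-/-, at least 6.49-fold higher. The intermediate filaments Nes and Des rose by 0.70 ± 0.14 and 0.56 ± 0.09.

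Calcium handling and ion channel genes that passed were split evenly, 4 higher and 4 lower of 23, 7 of them stable, and the list's median (-0.13) and mean (0.05) differed in sign. Kcnn3, a calcium-activated SK potassium channel, was dim in WT at 5.56, 5.74, 5.57 and 5.62 and lay at 7.19, 7.16, 7.07 and 7.36 in Gaa-/-, a rise of 1.57 ± 0.16. Its relative Kcnn2 lay at 5.89, 5.91, 6.07 and 6.97 in WT and was dim at 4.56, 4.76, 4.56 and 4.71 in Gaa-/-, a fall of 1.56 ± 0.28. The calcium channel subunits Cacnb1 and Cacng1 rose by 0.91 ± 0.10 and 0.81 ± 0.12. Clcn1, the chloride channel that stabilises the resting fibre, lay at 10.04, 9.93, 9.99 and 9.81 in WT and at 9.17, 9.38, 9.28 and 9.36 in Gaa-/-, a fall of 0.64 ± 0.10, and Jph1, which holds tubule and reticulum together, fell by 0.75 ± 0.08. Kcng4, a modifier subunit of voltage-gated potassium channels and among the 15 largest falls, lay at 7.53, 7.93, 7.43 and 7.47 in WT and at 6.34, 5.82, 5.38 and 6.06 in Gaa-/-.

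Of 17 sarcomere and Z-disc genes known to respond to mechanical strain 9 rose and 0 fell, 6 of them stable, and their median of 0.59 was the highest of the lists with at least 10 measured genes. Xirp1, which lines sites of myofibril damage and growth, lay at 7.68, 8.23, 8.36 and 7.93 in WT and 9.99, 9.89, 10.31 and 10.27 in Gaa-/-, a 4.19-fold rise (adjusted p = 4.77e-07). Flnc, the muscle filamin, lay at 8.46, 8.48, 8.42 and 8.47 in WT and at 9.28, 9.46, 9.44 and 9.57 in Gaa-/-, a rise of 0.98 ± 0.13. Small heat shock proteins that guard the Z-disc also rose: Hspb8 by 1.29 ± 0.16, Hspb7 by 1.16 ± 0.24, Cryab by 1.01 ± 0.17 and Hspb1 by 0.92 ± 0.16. The Gaa-/- values of Xirp1 and Flnc lay above all WT values. Tcap, a Z-disc gene outside this list, fell and is described under Other observations. The list was chosen with earlier results of these data known, so its counts and median depend partly on that choice. Csrp3 rose by 2.06 ± 0.61 with wide spread, at 7.25, 7.82, 8.38 and 7.32 in WT and 8.81, 9.23, 10.36 and 10.61 in Gaa-/-. It did not pass without WT replicate 1, 2 or 4 or Gaa-/- replicate 3 or 4, where its adjusted p lay between 0.0720 and 0.145.

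The fibre-type genes that passed were slow-fibre ones upward and fast-fibre ones downward, at 23.1% and 20% of their lists. Among all genes 3.40% were higher and 2.30% lower. Of 13 slow-fibre genes 3 rose, 2 of them stable. The call that was not stable was that of Csrp3, which is also in the list of strain-responsive genes. Myoz2, the slow-fibre calsarcin, lay at 10.33, 10.78, 10.72 and 10.41 in WT and 11.40, 11.47, 11.73 and 11.54 in Gaa-/-, a rise of 0.97 ± 0.22. Atp2a2, the slow calcium pump, rose by 0.60 ± 0.13. Of 15 fast-fibre genes 3 fell, 1 of them stable: Actn3, the fast alpha-actinin, lay at 12.89, 12.78, 12.91 and 12.86 in WT and at 12.53, 12.34, 12.13 and 12.37 in Gaa-/-, a fall of 0.51 ± 0.09. The fast count was 5 without Gaa-/- replicate 1 and ranged from 1 with the 8 arrays alone to 6 with array weights. Of the 5 defining slow markers 0 passed in limma, 1 had an unadjusted p below 0.05, and 0 passed in each of the 16 further fits. All 5 nevertheless differed upward, with a median of 0.34, and 2 of them were dim in both genotypes. Their mean level was 5.39 to 5.64 in WT and 5.70 to 6.11 in Gaa-/-, without overlap.

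Of 24 microtubule genes 7 rose and 2 fell, 6 of them stable, with a median of 0.28. Beside Map1a, its paralogue Map1b lay at 7.50, 7.67, 8.03 and 7.89 in WT and 9.70, 9.26, 8.79 and 9.11 in Gaa-/-, a 2.72-fold rise. Tubb6, a beta-tubulin that is low in resting muscle, lay at 6.32, 6.56, 6.13 and 6.70 in WT and at 8.10, 8.06, 8.24 and 8.21 in Gaa-/-, a 3.31-fold rise (adjusted p = 9.67e-10). Vash2, a tubulin carboxypeptidase, rose by 0.84 ± 0.18 and Tuba1c by 0.62 ± 0.14, whereas Mtus1 fell by 0.56 ± 0.11. Tubulins are near-identical in sequence, and cross-hybridisation among their probe sets was not tested.

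Tiam2, an exchange factor that loads the small GTPase Rac and one of the 15 largest rises, was dim in WT at 3.91, 5.35, 4.44 and 5.03 and lay at 6.84, 7.49, 7.68 and 7.22 in Gaa-/-, at least 6.17-fold higher. Among 16 genes of the dystrophin complex and its partners 4 rose and 2 fell; apart from Aqp4, the stable calls were Nos1, neuronal nitric oxide synthase, with 0.71 ± 0.13, and Lama2, laminin alpha 2, with 0.71 ± 0.13. That list's median (0.25) and mean (-0.02) differed in sign, and 3 of its 6 calls remained with the 8 arrays alone.

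Antioxidant genes known as targets of NRF2, the oxidant-sensing transcription factor, gave 6 rises and 1 fall among 23, 6 of them stable, with a median of 0.26. Gsta2, a glutathione transferase, rose by 2.31 ± 0.33 (adjusted p = 1.02e-05) but was dim in both genotypes, at 3.24, 2.44, 2.68 and 2.11 in WT and 4.24, 4.92, 5.33 and 5.24 in Gaa-/-, so its fold is not given. Srxn1, which repairs overoxidised peroxiredoxins, lay at 6.74, 7.11, 6.66 and 6.73 in WT and at 8.70, 8.71, 9.05 and 8.79 in Gaa-/-, a 4.01-fold rise. Nqo1, the quinone reductase, lay at 6.81, 6.78, 6.18 and 6.44 in WT and at 7.91, 8.25, 8.46 and 8.35 in Gaa-/-, a rise of 1.69 ± 0.19. Txnrd1 and Gpx1 rose by 0.83 ± 0.14 and 0.59 ± 0.11. The exception was Gpx3, the secreted glutathione peroxidase, which fell by 0.81 ± 0.15.

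Stress genes of the endoplasmic reticulum and the integrated stress response gave 6 rises and 1 fall among 25, 4 of them stable. Atf3, a stress-induced repressor of the ATF family, lay at 5.32, 6.05, 5.74 and 5.89 in WT and 7.64, 6.77, 7.72 and 7.78 in Gaa-/-, a 3.31-fold rise (adjusted p = 3.47e-05). Xbp1, the transcription factor spliced on reticulum stress, rose by 0.92 ± 0.13 and Psat1, of serine synthesis, by 0.68 ± 0.14, whereas Atf5 fell by 0.62 ± 0.12. The count of 7 was 4 without WT replicate 1 or Gaa-/- replicate 2 and with the 8 arrays alone. Of 11 general chaperones 3 rose, and Hsph1 (0.67 ± 0.15) was the stable one; without WT replicate 3 or Gaa-/- replicate 3 the count was 1. Of 19 targets of p53 and genes of growth arrest 5 rose and 2 fell, and 4 remained without WT replicate 2 or Gaa-/- replicate 2 and with the 8 arrays alone. The pro-apoptotic membrane protein Perp rose by 0.92 ± 0.16 and Phlda3 by 0.76 ± 0.17, beside Eda2r. Gadd45g, a growth arrest gene, lay at 8.11, 8.40, 8.49 and 9.01 in WT and at 6.18, 7.70, 6.86 and 6.24 in Gaa-/- and fell by 1.76 ± 0.34.

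Immediate early genes, which switch on within minutes of a stimulus, gave 7 rises and 0 falls among 26, 5 of them stable, with a median of 0.27. Egr1, a zinc finger factor, lay at 7.06, 6.57, 6.26 and 6.05 in WT and 10.12, 8.83, 8.83 and 8.64 in Gaa-/-, a rise of 2.62 ± 0.42 (adjusted p = 6.12e-05). Junb lay at 6.96, 6.63, 7.30 and 6.99 in WT and at 8.63, 7.77, 7.61 and 7.51 in Gaa-/-, a rise of 0.91 ± 0.18. Gaa-/- replicate 1 was the highest muscle for both genes, and Egr1 differed by 2.28 without it. Of 18 clock genes 1 rose and 2 fell: Nr1d1, the REV-ERB alpha repressor, lay at 9.66, 9.12, 9.74 and 9.53 in WT and at 8.24, 8.55, 7.97 and 8.91 in Gaa-/-, a fall of 1.09 ± 0.18. The clock count was 1 without WT replicate 4 or Gaa-/- replicate 3.

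Growth signals were led by Mstn, myostatin, the secreted brake on muscle growth. Mstn lay at 8.99, 8.67, 8.51 and 8.45 in WT and 6.56, 6.77, 6.88 and 6.86 in Gaa-/-, a fall of 1.89 ± 0.21 or 3.70-fold (adjusted p = 9.94e-08). Tmem100, an endothelial BMP target, lay at 7.52, 7.38, 7.47 and 7.51 in WT and at 6.04, 5.65, 5.77 and 5.71 in Gaa-/-, a fall of 1.67 ± 0.18, and Tgfb1 rose by 0.73 ± 0.13. Of the 26 genes of the myostatin, BMP and TGF-beta pathways 2 rose and 3 fell, with 3 calls in the 8 arrays alone. Of 19 insulin and IGF genes 2 rose and 1 fell, with 5 calls when dim genes were left out or under array weights; Akt1 rose by 0.72 ± 0.11 and Foxo4 fell by 0.79 ± 0.15.

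Ubiquitin ligases and atrophy genes, only some of which act in breaking down myofibrils in wasting muscle, gave 5 rises and 3 falls among 19. Trim63, the MuRF1 ligase, lay at 9.99, 10.10, 9.70 and 9.95 in WT and 11.17, 10.86, 11.71 and 11.0 in Gaa-/-, a rise of 1.25 ± 0.17 (adjusted p = 4.24e-06). Klhl40, which stabilises thin filament proteins, rose by 1.13 ± 0.15 and Eif4ebp1, a brake on translation, by 0.91 ± 0.17. Leaving out WT replicate 4, Gaa-/- replicate 2 or Gaa-/- replicate 3 left 4 of the 8 calls, and leaving out WT replicate 2, WT replicate 3, Gaa-/- replicate 1 or Gaa-/- replicate 4 left 5; the 3 genes named here passed each time. Of 21 amino acid transporters and tRNA synthetases 0 rose and 3 fell, among them Slc38a4 by 0.82 ± 0.14 and Slc43a1 by 0.77 ± 0.17.

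Few mitochondrial and fatty acid genes passed, but most of those measured differed downward. Positive differences numbered 10 of 35 in respiratory complex I, 3 of 24 in fatty acid uptake and oxidation and 3 of 22 in the citrate cycle list. Among all genes 8075 of 19291 were positive. An unadjusted p below 0.05 (limma) was found for 8, 6 and 10 members of these lists, against 3092 of all 19291 genes. The share of all genes called lower was 2.30%. Respiratory complex I had 2 falls among 35 genes with a median of -0.11, 0 of them stable; the count was 0 without WT replicate 3, WT replicate 4 or Gaa-/- replicate 1, 1 without WT replicate 1 or Gaa-/- replicate 2, and 5 with array spread as a covariate. Fatty acid uptake and oxidation had 1 fall among 24 with a median of -0.20, and that count was 0 without Gaa-/- replicate 1 and 2 without Gaa-/- replicate 3. Of 22 genes of the citrate cycle and pyruvate oxidation 2 fell, with a median of -0.23: Adhfe1, which oxidises gamma-hydroxybutyrate, lay at 6.36, 6.20, 5.77 and 5.77 in WT and at 4.37, 5.03, 5.24 and 4.92 in Gaa-/-, a fall of 1.13 ± 0.21. That count was 1 without WT replicate 1, WT replicate 2, WT replicate 4 or Gaa-/- replicate 1. It was 4 after a second quantile normalization or with a trend and robust prior, and 6 with array spread as a covariate. Of 18 mitochondrial regulators and carriers Gdap1, described above, was the only call.

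Sphingolipid genes included 2 of the larger rises. Of 17 measured 3 rose and 1 fell, and the list's median (-0.01) and mean (0.26) differed in sign. Cers6, a ceramide synthase for shorter acyl chains, was dim in WT at 5.64, 5.47, 4.47 and 5.29 and lay at 8.03, 7.50, 7.96 and 8.06 in Gaa-/-, at least 6.37-fold higher. Sgms2, a sphingomyelin synthase, was dim in WT at 4.54, 5.03, 5.10 and 4.18 and lay at 6.77, 7.21, 7.11 and 6.75 in Gaa-/-, a rise of 2.25 ± 0.24, and Tlcd3b, related to ceramide synthases, fell by 1.34 ± 0.19. Of 14 genes of cholesterol and lipid synthesis Fdft1 and Dhcr7 fell, by 0.81 and 0.58.

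**Figure D4:**
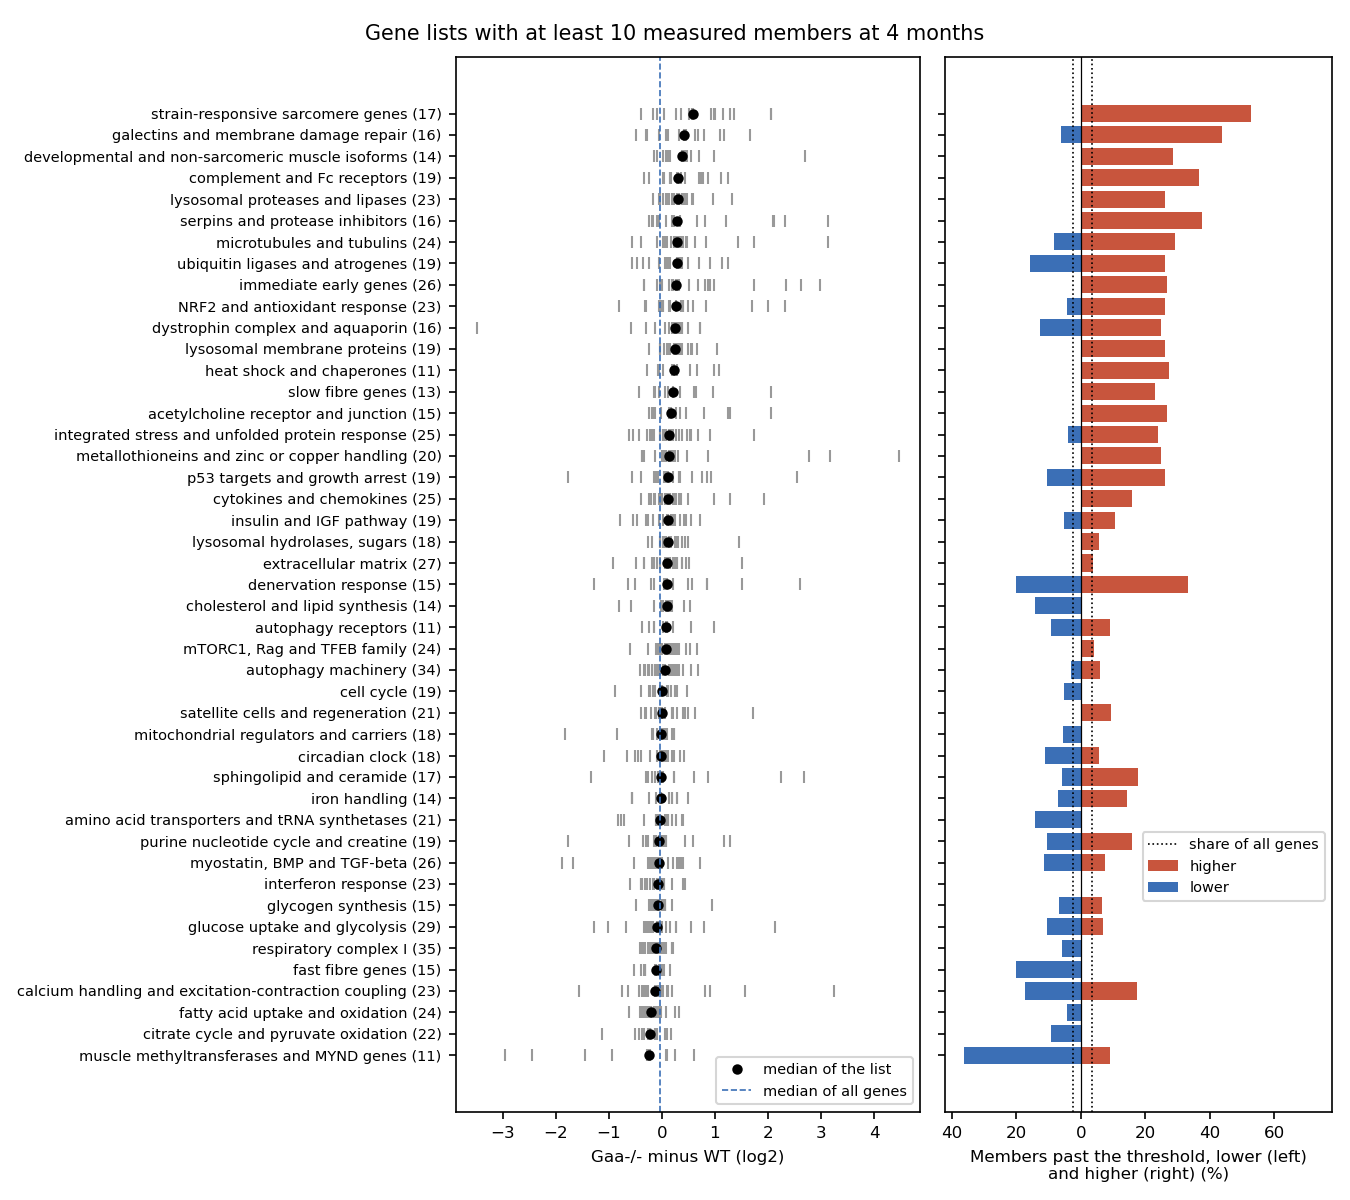
Gene lists described in the text, cell type and tissue markers left out, with at least 10 measured members at 4 months, with their number in brackets. Left, the difference of each member (grey ticks, log2) with the list's median (black dots) and the median of all genes (dashed line, -0.04); right, the percentage of members past the threshold in each direction, with dotted lines at 3.40% higher and 2.30% lower for all genes. Strain-responsive sarcomere genes have the highest median, 0.59, and methyltransferases and MYND genes the lowest, -0.25.

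Of 16 serpins and other protease inhibitors 6 rose and 0 fell, and all 6 were stable. Serpinb1a, an intracellular inhibitor of neutrophil serine proteases, lay at 6.88, 6.34, 6.86 and 6.64 in WT and 9.34, 10.08, 9.82 and 9.96 in Gaa-/-, an 8.71-fold rise (adjusted p = 2.33e-12). Serpina3n, a secreted acute-phase inhibitor, lay at 7.20, 7.16, 6.98 and 7.30 in WT and at 9.03, 9.24, 9.45 and 9.30 in Gaa-/-, a rise of 2.10 ± 0.16. Timp1, the inhibitor of matrix metalloproteinases, was dim in WT at 5.26, 5.50, 5.86 and 5.84 and lay at 7.47, 7.99, 7.70 and 7.73. Serpinb8 and Serpinb6a rose by 2.32 ± 0.29 and 1.21 ± 0.12, and Cstb, an inhibitor of cathepsins, by 0.81 ± 0.17. The list's median was 0.29, against a mean of 0.78.

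Among immune genes some of macrophages rose. Of 13 macrophage markers 5 rose and 0 fell, with a median of 0.50. Mpeg1, the macrophage pore protein perforin-2, lay at 4.08, 4.03, 3.86 and 4.16 in WT and 5.64, 6.14, 5.72 and 5.81 in Gaa-/-, at least 3.47-fold higher (adjusted p = 4.97e-05). Lyz2, the lysozyme of myeloid cells, whose probe set may also read the close copy Lyz1, lay at 7.46, 7.55, 7.79 and 7.71 in WT and at 8.77, 9.24, 9.17 and 9.16 in Gaa-/-, a rise of 1.46 ± 0.23. The ranges of the mean marker level, given with the lysosomal genes, did not overlap, and the lowest Gaa-/- value was that of replicate 1. The count of 5 was 3 without WT replicate 3 or Gaa-/- replicate 2, and 2 with dim genes left out. Of 9 T and NK cell, 5 B cell and 7 neutrophil markers 0 passed, with 0.12, -0.23 and 0.02 as their medians (limma; 0, 1 and 0 had an unadjusted p below 0.05, and 0 passed in each of the 16 further fits). All of these lymphocyte and neutrophil markers were dim in both genotypes, against 5 of the 13 macrophage markers.

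Complement and Fc receptor genes gave 7 rises among 19 and 0 falls, with Fcgr2b, the inhibitory Fc receptor, rising by 1.25 ± 0.21, Fcgr3 by 1.12 ± 0.18 and C3ar1, the receptor for C3a, by 0.70 ± 0.16. The count was 4 without WT replicate 3 or Gaa-/- replicate 2 and 3 without Gaa-/- replicate 3, and the 3 genes named passed each time. Of 7 genes of antigen presentation, not all of class II, 4 rose, and these 4 were class II genes. H2-Eb1 (0.98 ± 0.20) and H2-Ab1 (0.72 ± 0.18) were the stable ones. The count was 2 without WT replicate 2 or Gaa-/- replicate 2. Of 25 cytokines, chemokines and their receptors 4 rose. Tnfrsf12a, the TWEAK receptor Fn14 of injured muscle, lay at 7.64, 7.82, 7.80 and 8.26 in WT and at 9.12, 9.77, 10.19 and 10.14 in Gaa-/-, a 3.80-fold rise, and the chemokines Ccl9, Ccl6 and Cxcl14 rose by 1.28 ± 0.25, 0.99 ± 0.19 and 0.49 ± 0.12. Of 23 interferon-response genes 0 passed, with a median of -0.07 (limma; 4 had an unadjusted p below 0.05, and 1 passed with the 8 arrays alone). The macrophage marker level moved with these genes as well, and its part in them was not tested.

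Matrix, regeneration and other cell markers were counted in the same way. Of 27 matrix genes 1 rose, Thbs1, a thrombospondin that activates TGF-beta, at 6.17, 5.75, 6.36 and 6.61 in WT and 7.74, 7.64, 8.45 and 7.10 in Gaa-/-, and the count was 2 without WT replicate 3, 3 with the 8 arrays alone or dim genes left out, and 5 with array weights. Of 21 genes of satellite cells and regeneration 2 rose: Mymk, the fusion protein myomaker, was dim in WT at 4.77, 4.69, 5.61 and 5.25 and lay at 7.38, 6.66, 6.29 and 6.86, and Sdc4, a syndecan of satellite cells, rose by 0.63 ± 0.14; other settings gave 2 to 5 calls. Of 19 cell cycle genes Aurka fell, by 0.88 ± 0.19, and 0 rose; the count was 2 without Gaa-/- replicate 1 and with array weights. Fibroblast markers gave 1 rise among 8, Mfap5, and tendon markers 1 among 7, Scx, the tendon transcription factor. Of 10 smooth muscle and pericyte markers 2 rose and 1 fell, with a median of 0.08: the pericyte proteoglycan Cspg4 rose by 0.71 ± 0.13 and was stable, whereas the rise of Myh11, the smooth muscle myosin, and the fall of Kcnj8, a potassium channel, lost their calls with the 8 arrays alone. Myh11 also lost its call without any 1 array other than WT replicate 4 or Gaa-/- replicate 3. Mean endothelial marker levels lay at 7.93 to 8.0 in WT and 7.76 to 7.87 in Gaa-/-, and 1 of 11, Cdh5 (a fall of 0.32), passed; that count was 0 without WT replicate 1, WT replicate 3, Gaa-/- replicate 2 or Gaa-/- replicate 3. Of 6 Schwann cell, 8 adipocyte, 4 blood and 7 epidermis markers 0 passed in limma, also in each of the 16 further fits. The epidermis markers were all dim in both genotypes. An unadjusted p below 0.05 (limma) was found for 1 Schwann cell marker, 0 adipocyte markers, 1 blood marker and 0 epidermis markers. All 6 Schwann cell markers differed downward, with a median of -0.16, and 3 of them were dim in both genotypes. Their mean level was 5.49 to 5.85 in WT and 5.42 to 5.46 in Gaa-/-, without overlap.

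Whether the 4-month differences depart from those at the other ages was tested directly, as the genotype difference at 4 months minus the mean of those at 1.5, 6 and 9 months. Of 19291 genes 0 passed (0.00%, limma), while 897 had an unadjusted p below 0.05 (4.65%) and 1 passed with dim genes left out and 1 with array weights. The smallest adjusted p belonged to Mybph, 0.0892: its genotype difference was 2.70 at 4 months against 0.52, 2.10 and 0.96 at 1.5, 6 and 9 months, an excess of 1.50 ± 0.27. Atf3 differed by 1.73 at 4 months against 0.34, 0.72 and 0.27, an excess of 1.29 ± 0.31, and Ampd1 by -1.77 against -0.82, -1.59 and -1.14, an excess of -0.58 ± 0.14. Crhr2, a receptor for urocortins, differed by -0.76 against -0.67, -0.25 and 0.33, and Angptl7, an angiopoietin-like secreted protein, by 0.54 against -1.56, 0.05 and -0.70. A test that did not pass does not show that ages were alike.

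Of the 1099 genes that passed at 4 months, 421 also passed at 1.5 months, 688 at 6 months and 675 at 9 months, 294 passed at all ages and 223 at no other age. The sign at 4 months was the sign at every other age for 958 of them. These ages share no arrays with each other, but 1 fit supplied a common spread per gene, so calls at different ages were not independent. The shares of all genes that passed at the other ages are not given, so the overlaps have no background to be read against. Mt2 differed by 4.47 at 4 months and by 3.16, 4.57 and 3.95 at 1.5, 6 and 9 months. Aqp4 differed by -3.48 and by -1.75, -3.50 and -2.86, Chrnd by 2.06 and by 1.77, 2.27 and 1.98, and Mstn by -1.89 and by -0.90, -2.29 and -2.18. All 4 genes kept 1 direction through the series.

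**Figure D5:**
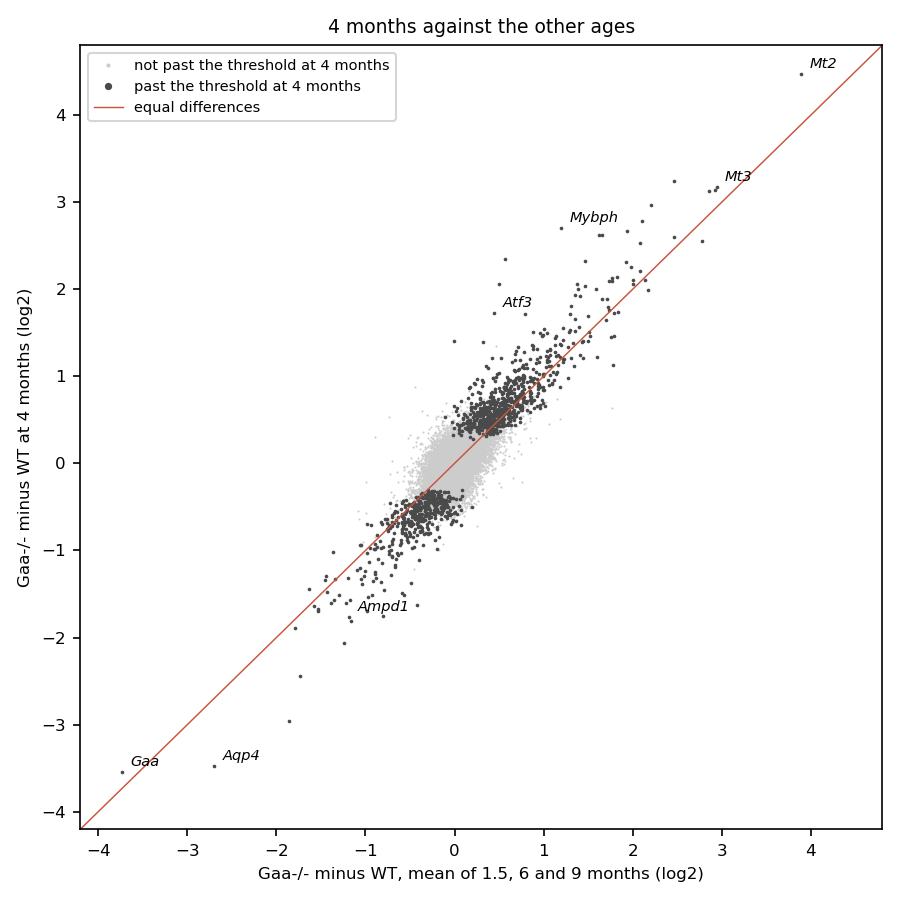
Genotype difference of each gene at 4 months (y axis, log2) against the mean of its differences at 1.5, 6 and 9 months (x axis, log2). Dark points are the 1099 genes past the threshold at 4 months and the line marks equal differences; because the dark points were chosen on the y axis, their distance from the line is partly set by that choice. Mybph lies above the line, with 2.70 at 4 months.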

How the data were processed

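Total RNA of tibialis anterior was measured on Affymetrix arrays, 1 array per muscle. The deposited values are log2 intensities summarised by RMA with the affy package, per the submitters' processing notes, with no versions given. RMA corrects background and equalises the arrays' distributions, so folds of dim genes are compressed and total RNA per muscle cannot be read. Every one of the 19291 probe sets with a symbol matched RefSeq by Entrez identifier, none had several symbols, and 788 had none.

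Differences were fitted with limma 3.58.1 in R 4.3.3 on all 32 arrays, with 1 mean for each of 8 groups, empirical Bayes moderation (24 residual and 6.93 prior degrees of freedom) and Benjamini-Hochberg adjustment over the 19291 genes at 0.05. No pseudocount or filter was used, and the number of arrays limits precision: the median standard error was 0.158. Replicates are biological replicates per the labels. The members, 65 gene lists and tests were chosen with earlier results of these data known; 1 list is not reported here. Genes were named by a rule: Gaa, the metallothioneins, the 15 largest rises and falls without overlap, list members past the threshold or, where fewer than 4 passed, up to 4 by smallest p, and up to 10 by p against the other ages. Genes outside it are said to be named after their values were seen. The code was tested on simulated data. Alternatives were the 8 arrays alone, a replicate block, median centring, a second quantile normalization, array spread as a covariate, leaving out dim genes, a trend with robust prior, array weights and leaving out each array.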

Additional observations from a re-analysis of the deposited data

Results flagged for a closer look

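For each gene named in the text, the 4 values of a genotype at 4 months were searched for 1 muscle far from the other 3, by the gap to its nearest neighbour as a share of the group's range (Dixon's criterion, which flags about 1 group in 20 by chance). Of 352 sets of 4 values, 15 met it, which is 4.26%. In Gaa-/- replicate 1 these were Egr1, high at 10.12, Gpd1, high at 9.79, and 5 low values: Atp6ap2 at 7.64, Chrnb1 at 7.15, Hspb1 at 9.04, Lyz2 at 8.77 and Tcap at 9.60. In the other Gaa-/- muscles they were Dysf in replicate 2, high at 9.41, Gbe1 in replicate 4, high at 8.82, Atf3 and Xbp1 in replicate 2, low at 6.77 and 9.76, and Perp in replicate 3, low at 6.39. In WT they were Adk in replicate 3, low at 8.94, Kcnn2 in replicate 4, high at 6.97, and Ybx2 in replicate 2, high at 8.34.

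Of the 788 probe sets without a gene symbol, which entered no comparison above, 50 differed between the genotypes at 4 months in a limma fit over all probe sets, or 6.35%. Of these 31 were higher in Gaa-/- and 19 lower, with differences from -1.33 to 3.75. They are unnamed here.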

How the results depend on the processing

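The count of 1099 genes stayed within 1.5 times under every alternative: 758 with the 8 arrays alone, 1022 with median centring, 1070 after a second quantile normalization, 1324 with array spread as a covariate, 1276 of 10029 genes with dim genes left out, 1214 with a trend and robust prior, 1579 with array weights, and 820 to 972 when each array was left out in turn. With a replicate block the count was 929, of which 891 were among the 1099. Same-numbered arrays at 4 months correlated at -0.13, -0.05, -0.20 and 0.01 after removal of group means. At 1.5 months the values were 0.04, 0.21, 0.30 and 0.01, at 6 months -0.03, -0.01, 0.02 and -0.01, and at 9 months -0.03, -0.08, -0.02 and 0.23. So few correlations cannot show whether the numbers paired the samples. The count of genes that departed from the other ages was 0, and 1 with dim genes left out and 1 with array weights. Gaa kept its direction and call throughout. The difference of Mt4, which did not pass, turned from 0.09 to -0.0092 without Gaa-/- replicate 1 and ran up to 0.19 when other arrays were left out; the cause was not tested. Of the individual genes in the text, Csrp3, Cdh5, Rragc, Bnip3, Atp6v1h, Atp6v0a1, Myf6, Myh11 and Kcnj8 lost their calls in at least 1 fit, Chrnb1 gained one with array weights, and Myog gained one in 7 fits. Dim genes limit the folds, since levels near the floor are compressed.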

Other observations

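The genes given here stand outside the lists and were named after their values were seen. Among subunits of the AMP-activated protein kinase, the cell's energy sensor, Prkag2 lay at 6.34, 6.71, 4.97 and 6.52 in WT and 7.60, 7.99, 7.88 and 7.93 in Gaa-/- muscle, a rise of 1.71 ± 0.25 (limma, adjusted p = 1.26e-05). The muscle-specific gamma subunit Prkag3 lay at 8.21, 7.83, 8.16 and 7.79 in WT and at 7.40, 7.34, 7.08 and 7.40 in Gaa-/-, a fall of 0.69 ± 0.12, and Prkab2 fell by 0.72 ± 0.14. Prkag1 did not pass, with a difference of -0.09. Nmrk2, a nicotinamide riboside kinase of muscle, lay at 6.99, 8.23, 7.21 and 8.20 in WT and at 9.51, 9.49, 9.82 and 9.85 in Gaa-/-, a rise of 2.01 ± 0.25.

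Tlr4, the receptor for bacterial lipopolysaccharide, lay at 5.93, 5.72, 5.42 and 6.07 in WT and at 7.83, 7.51, 8.18 and 7.81 in Gaa-/-, a 4.12-fold rise. Lmna, which encodes the nuclear lamins A and C, rose by 1.16 ± 0.11, Panx1, a membrane channel for ATP, by 1.22 ± 0.16 and Cd44, a hyaluronan receptor, by 1.16 ± 0.18. Cd44 lay at 6.0, 6.38, 5.96 and 6.38 in WT and 7.40, 7.25, 7.38 and 7.33 in Gaa-/-. Retreg1, a receptor for autophagy of the endoplasmic reticulum, lay at 10.09, 10.55, 9.97 and 10.16 in WT and at 11.01, 11.46, 11.81 and 11.13 in Gaa-/-, a rise of 1.16 ± 0.19. Among genes that fell, Tcap, the titin cap of the Z-disc, lay at 10.87, 11.25, 11.08 and 11.08 in WT and at 9.60, 10.16, 10.15 and 10.13 in Gaa-/-, and Gpt2, mitochondrial alanine aminotransferase, at 9.73, 9.13, 9.32 and 9.27 in WT and 8.33, 8.08, 7.79 and 7.92 in Gaa-/-.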
